A study of Mus musculus with 10 samples.

Results

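The transcripts of 35 genes of homologous recombination and Fanconi repair were followed through RNA-seq of cultured mouse tongue epithelium. The genes were chosen by name for their known function, and each was found by its symbol in the deposited table. All 35 were among the 18586 genes of that table and all 35 were among the 11630 genes whose level was high enough to be tested. The comparison asked whether cells with active YAP1 and the E6-E7 oncogenes of human papillomavirus hold more or less of these transcripts than cells with neither.

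Homologous recombination repairs a DNA double-strand break by copying the intact sister chromatid, and so works mainly while DNA is being replicated and before the cell divides. The broken end is trimmed to single strands, BRCA2 and its partners prepare these for strand exchange, and the sister is searched for the same sequence. The Fanconi pathway removes crosslinks that tie both DNA strands together and block the replication fork, and hands the break it makes to the same recombination machinery. E6 and E7 inactivate p53 and the retinoblastoma protein, a pair of brakes on the cell cycle, and many repair genes are transcribed with the cell cycle.

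All cultures carried Krt14-CreERT, LSL-rtTA and tetON_H2B-GFP, that is, a tamoxifen-activated Cre under the promoter of keratin 14 (a keratin of the basal layer), a Cre-dependent doxycycline transactivator, and an inducible green nuclear reporter. EY cultures also carried tetON_E6-E7 and tetON_YAP1S127A, a YAP1 that the Hippo kinases cannot switch off, whereas N cultures, the controls, carried no oncogene. Epithelium was taken 15 days after induction and grown in medium with doxycycline, to keep the transgenes active. By the study's methods, cultured cells were then sorted for green fluorescence and grown again. Poly(A) RNA was sequenced. The 6 EY libraries came from 3 lines with 2 libraries each (EY3960, EY4028 and EY4174), and the 4 N libraries came from 1 line, N4172. Genotype therefore cannot be told apart from line. The study calls its replicates biological, but the labels give the libraries of a line 1 line number and do not say whether they came from separate animals, so that each p-value measures the spread between these libraries. The age, strain and sequencing batch of each culture are not given in the labels.

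The values were TPM, transcript abundances per unit of length scaled to a common total within each library, so that levels of different genes can be compared. The read depth behind them is unknown and no counting error could be given. Between 10852 and 11522 genes reached 1 TPM in each library. Yap1 lay between 34.7 and 57.1 TPM in EY and between 17.2 and 20.9 TPM in N, with no overlap. The study's primers specific to the transgene are named for human YAP1. How far the mouse Yap1 value holds reads of the transgene is not known. The 8 markers of basal epithelium were all measured, with summed levels of 4291 to 7246 TPM in EY and 5284 to 5973 TPM in N. Markers of fibroblasts, endothelium and skeletal muscle summed to less than 1 TPM in every library. Of 6 melanocyte markers 5 were measured, mainly Gpnmb, at 2.32 to 4.11 TPM in EY and 10.1 to 27.1 TPM in N, with Dct and Pmel below 1 TPM on average in both. Of 10 immune markers 6 were measured, nearly all of it Cd68, S100a8 and S100a9, at 44.7 to 149 TPM in EY and 43.2 to 77.9 TPM in N, with Ptprc, the pan-leukocyte marker, at 0.141 and 0.0918 TPM on average. The part of such cells in the results below was not tested. In such bulk samples fewer cells with a transcript and less of it per cell cannot be told apart.

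Single repair genes differed from N in both directions, with little shift of the median. The median difference between EY and N over the 35 genes was 0.0040 on the log2(TPM + 1) scale, against 0.029 over all genes tested, with 19 genes above 0 and 16 below. Summed over the 35 genes, the level was 469 and 537 TPM in EY3960, 541 and 555 TPM in EY4028, 524 and 446 TPM in EY4174, and 541, 560, 600.3 and 547 TPM in N. The means were 512 ± 44.1 TPM (SD, n = 6) in EY and 562 ± 26.5 TPM (SD, n = 4) in N, and 5 of 6 EY libraries lay below every N library, 1 of them by less than 1 TPM. Most of that gap lay in the 5 checkpoint genes (Atm, Atr, Chek1, Chek2 and Topbp1). Their sums averaged 132 ± 12.2 TPM (SD, n = 6) in EY and 178 ± 7.36 TPM (SD, n = 4) in N. A difference passed where limma, fitted over all genes tested, gave a Benjamini-Hochberg adjusted p under 0.01. By that rule 5 of the 35 genes passed, and 11.8% of all genes tested did. Fanca and Fancl rose in EY, where 6.84% of all genes rose, and Atm, Chek2 and Topbp1 fell, where 5.00% of all genes fell. No member also differed by more than 1 on the log2 scale, the size that 3.55% of all genes reached, and 0 did so under any of the 24 other ways of running the comparison. At an unadjusted p under 0.05 stood 12 of the 35 genes, or 34.3%, against 37.5% of all genes. The share of repair genes that changed was therefore near that of the transcriptome at large.

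**Figure D1:**
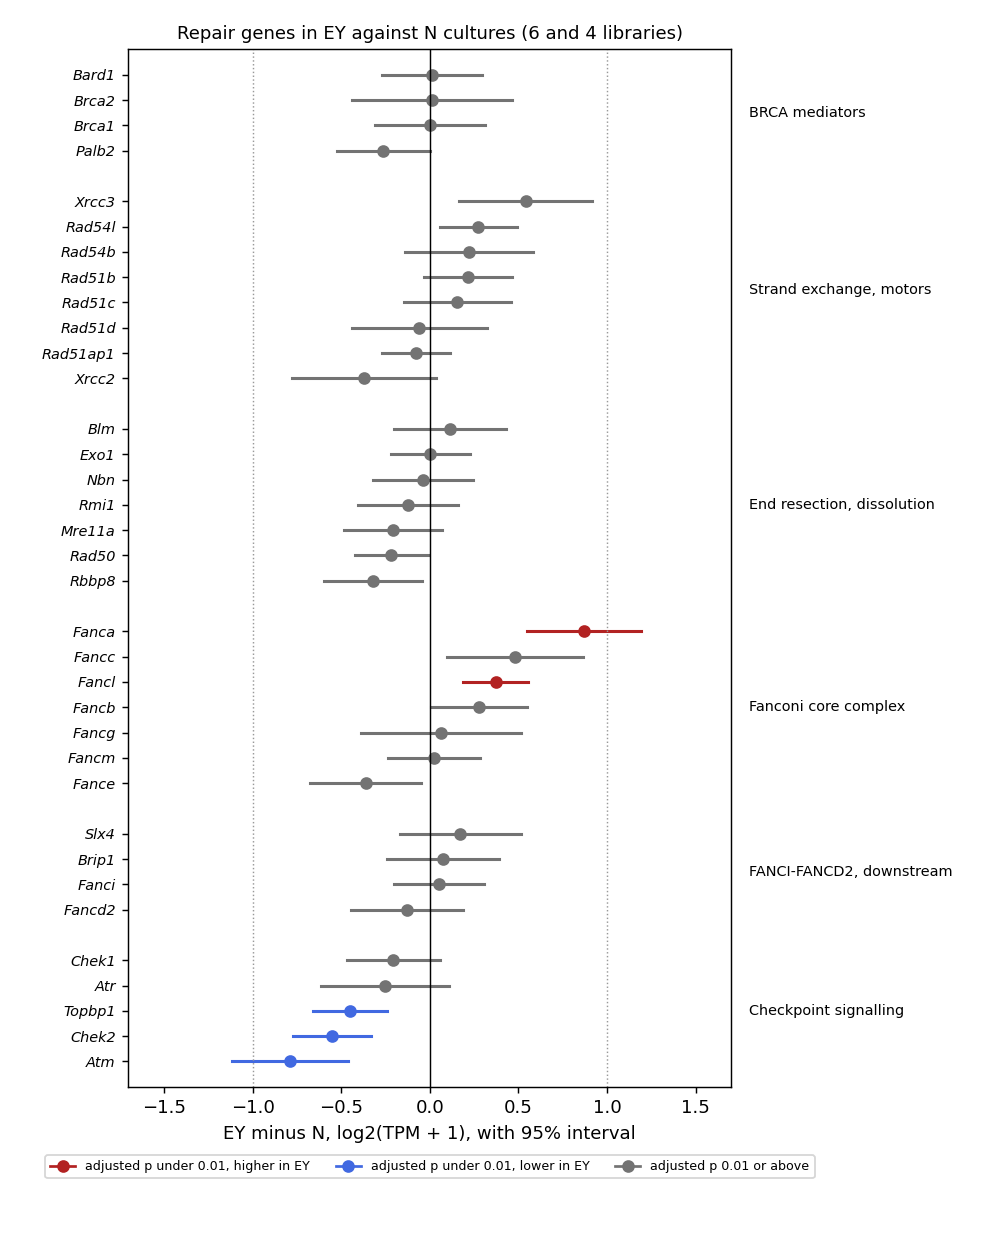
Difference between EY and N for each of the 35 repair genes on the log2(TPM + 1) scale, with bars for the 95% interval of limma's fit and genes grouped by role; filled colour marks genes with an adjusted p under 0.01. Fanca at 0.87 and Fancl at 0.37 lie to the right of 0, Atm at -0.79, Chek2 at -0.55 and Topbp1 at -0.45 lie to the left, and most other intervals cross 0.

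The intervals of the differences treat the 10 libraries as independent, so they bound these genes against the spread between libraries and not between lines. For 33 of the 35, both 95% limits lay between -1 and 1, and for 19 both lay between -0.5 and 0.5. Fanca and Atm were the 2 genes whose interval reached past 1 in size. The median interval was 0.56 wide and the widest 0.90. Levels were not low either, with a median of 11.0 TPM over the 35 genes against 11.7 TPM over all genes tested, and no member was at 0 in any library.

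The Fanconi core complex, which attaches ubiquitin to FANCD2 and FANCI at a stalled fork, held both genes that rose. Fanca, the scaffold subunit most often mutated in Fanconi anaemia, stood at 10.02 and 8.39 TPM for EY3960, 14.3 and 13.1 TPM for EY4028, and 12.3 and 9.81 TPM for EY4174. The N libraries had 4.87, 6.16, 6.59 and 5.11 TPM, so that the lowest EY library was above the highest N library. The means were 11.3 ± 2.26 TPM (SD, n = 6) in EY and 5.68 ± 0.827 TPM (SD, n = 4) in N, a ratio of 1.99 and a log2 difference of 0.87 (SE 0.15, adjusted p = 0.0014). This call was kept in every fit that left out 1 library or 1 line. With line as a random block, a fit in which 248 of the 11630 genes passed in place of 1377, the difference was the same and the adjusted p 0.042. Setting the 3 EY line means against the single N line gave Fanca the same difference, 0.87. With 1 N line that fit holds no spread between N lines, so it cannot show whether a gene differs by genotype or by line.

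Fancl, the subunit that carries the ubiquitin ligase activity, was at 15.2 and 14.7 TPM in EY3960, 16.6 and 16.2 TPM in EY4028, and 14.2 and 16.4 TPM in EY4174, against 12.4, 10.6, 12.2 and 12.0 TPM in the N libraries. The groups again did not overlap, but they lay close together. The log2 difference was 0.37 (SE 0.084, adjusted p = 0.0081), from means of 15.6 ± 0.982 TPM (SD, n = 6) in EY and 11.8 ± 0.840 TPM (SD, n = 4) in N. This call was near the threshold and failed in 18 of the 24 other fits, at 0.32 to 0.41 in those that lost it. It failed without library 1 or 2 of EY3960 (adjusted p = 0.012 in both), library 1 or 2 of EY4028 (0.020 in both), library 2 of EY4174 (0.012), or N libraries 1 to 4 (0.020, 0.035, 0.022 and 0.012). It also failed without line EY3960 (0.012), EY4028 (0.043) or EY4174 (0.011), and scaling each library to its median gave an adjusted p of 0.011. Fewer genes passed at large in some of these fits, 728, 690 and 722 without N libraries 1, 2 and 3, and 767 without line EY4028, in place of 1377.

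The other core subunits were less clear. Fancc, which binds FANCE, averaged 3.58 ± 1.11 TPM (SD, n = 6) in EY and 2.20 ± 0.125 TPM (SD, n = 4) in N, and 5 of 6 EY libraries lay above every N library (log2 difference 0.48, adjusted p = 0.065). Fancb, a partner of the ligase, averaged 11.6 TPM in EY and 9.44 TPM in N (0.28, adjusted p = 0.12). Fance, which docks FANCD2 onto the complex, was the 1 core gene with a value below 0, at 10.8 TPM in EY and 13.9 TPM in N (-0.36, adjusted p = 0.089). Fancg and Fancm, an adaptor and the translocase that anchors the complex to DNA, differed by 0.06 and 0.02. Over the 7 core genes the median difference was 0.28, with 2 genes that passed, both higher, against 11.8% of all genes.

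The checkpoint members lay on the other side. Their 5 differences were all below 0, with a median of -0.45, and 3 of the 5 passed, where 11.8% of all genes passed and 5.00% fell. Since the list was drawn up with results of these data known, that count is a description. ATM and ATR are the kinases that sense double-strand breaks and stalled forks, CHEK2 and CHEK1 are the kinases they switch on, and TOPBP1 activates ATR. The summed level of the 5 was 113 to 145 TPM in EY and 170 to 187 TPM in N, with no overlap, and Topbp1 made up the larger part of it. This did not extend to 17 other genes of the checkpoint and break response. Their median was -0.05, with 7 above 0 and 10 below, and 1 passed, higher in EY. Their summed level overlapped, at 399 to 438 TPM in EY and 398 to 444 TPM in N.

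Atm was at 5.50 and 9.22 TPM in EY3960, 8.65 and 8.45 TPM in EY4028, and 7.17 and 5.62 TPM in EY4174. The N libraries held 15.7, 13.2, 13.0 and 11.7 TPM, each above every EY library. Atm fell by 0.79 on the log2 scale (SE 0.15, adjusted p = 0.0031), from 13.4 ± 1.67 TPM in N (SD, n = 4) to 7.43 ± 1.60 TPM in EY (SD, n = 6). The call was lost without N library 1 (adjusted p = 0.015), N library 2 (0.013) or N library 3 (0.012), with a difference of -0.71 to -0.80 in those fits. Of all genes tested, 728, 690 and 722 passed in those fits in that order, in place of 1377.

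Chek2 was at 20.2 and 18.5 TPM in EY3960, 19.3 and 18.7 TPM in EY4028, and 22.6 and 17.5 TPM in EY4174, against 24.7, 32.0, 32.5 and 27.0 TPM in N. The EY lines were alike, with line means of 19.0 to 20.1 TPM. The decrease was 0.55 on the log2 scale (difference -0.55, SE 0.10, adjusted p = 0.0024). It no longer passed without N library 2 (adjusted p = 0.013), N library 3 (0.013) or line EY4028 (0.016). In those fits 690, 722 and 767 of all genes tested passed, in place of 1377.

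Topbp1, the most abundant of the 35 transcripts, was at 69.7 and 82.2 TPM in EY3960, 68.1 and 68.9 TPM in EY4028, and 67.5 and 56.3 TPM in EY4174. The N libraries had 87.8, 88.2, 97.7 and 101.6 TPM, all above the EY libraries. The log2 difference was -0.45 (SE 0.095, adjusted p = 0.0058). The call failed in 12 of the 24 other fits, at -0.36 to -0.48 in those that lost it. Among them were the fits without library 1 or 2 of EY4028 (adjusted p = 0.013 in both), library 1 of EY4174 (0.011), N libraries 1 to 4 (0.014, 0.015, 0.024 and 0.015) or line EY4028 (0.028). Of all genes tested, 728, 690 and 722 passed without N libraries 1, 2 and 3, and 767 without line EY4028, in place of 1377.

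With line as a random block Fancl, Atm, Chek2 and Topbp1 did not pass either, at unchanged differences of 0.37, -0.79, -0.55 and -0.45 and adjusted p of 0.16, 0.095, 0.10 and 0.11. Atr and Chek1, the replication arm of the checkpoint, did not pass. Chek1 lay below every N library in 5 of 6 EY libraries, with means of 25.9 ± 4.37 TPM (SD, n = 6) in EY and 29.7 ± 1.19 TPM (SD, n = 4) in N, at -0.21 (adjusted p = 0.23). Atr averaged 10.3 ± 2.59 TPM (SD, n = 6) in EY and 12.1 ± 0.593 TPM (SD, n = 4) in N, at -0.25 (adjusted p = 0.29). Its spread in EY lay both between and within lines. Its values were 6.52 and 8.83 TPM in EY3960, 12.2 and 12.9 TPM in EY4028, and 12.4 and 8.72 TPM in EY4174.

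**Figure D2:**
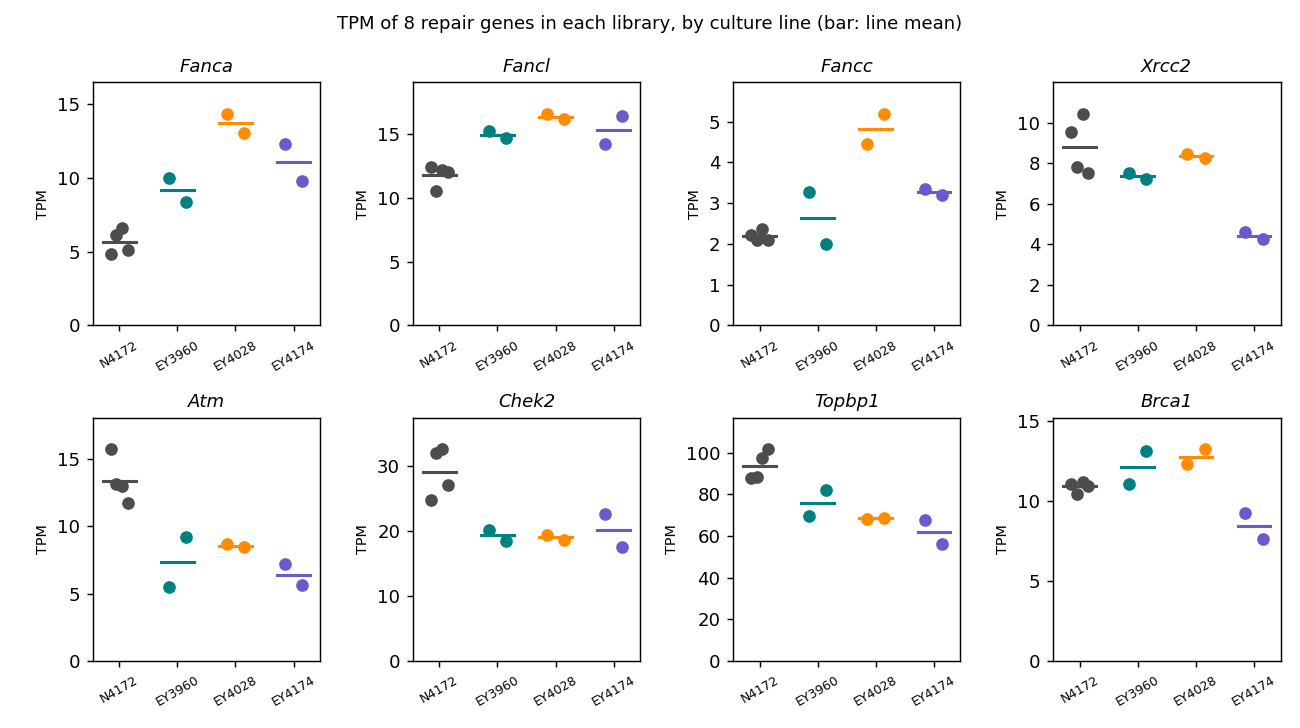
TPM of 8 repair genes, 1 panel a gene, with 1 point for each of the 10 libraries, placed and coloured by culture line, and a bar at each line's mean. Fanca is above 8 TPM in every EY library and below 7 TPM in every N library, while Atm lies between 5.50 and 9.22 TPM in EY and between 11.7 and 15.7 TPM in N.

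The start regions of the 5 genes that passed are shown, to set the letters before each start beside its direction. RefSeq promoters of build GRCm38.p6 were matched to 27 of the 35 genes by symbol (Exo1, Rad51d, Rad54b, Nbn, Rbbp8, Xrcc2, Fancd2 and Rad50 had none), and the 200 bases before each start were searched on both strands. Only the first promoter listed for a symbol was used, so any other start of a gene was not searched. The motifs were E2F words (TTTCCCGC, TTTCGCGC, TTTGCCGC and TTTGGCGC), the cell cycle homology element CHR (TTTGAA and TTTAAA) and the CCAAT box (CCAAT), with no letters shared between the kinds in these sequences. Each is written 5′ to 3′ in the direction of the gene and ends at the base before the start, with motif letters in capitals. Fanca is chr8:123318577-123318776 on the minus strand, Fancl chr11:26386884-26387083 on the plus strand, Atm chr9:53536672-53536871 on the minus strand, Chek2 chr5:110839783-110839982 on the plus strand, and Topbp1 chr9:103305127-103305326 on the plus strand.
Fanca: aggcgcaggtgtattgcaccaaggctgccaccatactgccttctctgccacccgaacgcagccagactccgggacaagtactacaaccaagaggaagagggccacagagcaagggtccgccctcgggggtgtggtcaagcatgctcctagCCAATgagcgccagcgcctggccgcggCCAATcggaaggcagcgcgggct
Fancl: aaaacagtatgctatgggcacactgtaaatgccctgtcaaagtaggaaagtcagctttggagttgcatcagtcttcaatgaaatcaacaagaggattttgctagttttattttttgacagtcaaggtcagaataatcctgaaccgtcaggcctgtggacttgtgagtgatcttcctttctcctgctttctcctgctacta
Atm: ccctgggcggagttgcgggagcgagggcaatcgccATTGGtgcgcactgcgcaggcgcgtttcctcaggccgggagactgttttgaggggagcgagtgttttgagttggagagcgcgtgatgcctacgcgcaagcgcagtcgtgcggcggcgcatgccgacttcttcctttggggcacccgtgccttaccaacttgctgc
Chek2: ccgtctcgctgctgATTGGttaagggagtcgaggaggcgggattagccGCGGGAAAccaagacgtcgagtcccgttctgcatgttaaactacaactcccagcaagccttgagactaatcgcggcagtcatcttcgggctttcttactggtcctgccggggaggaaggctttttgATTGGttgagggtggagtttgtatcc
Topbp1: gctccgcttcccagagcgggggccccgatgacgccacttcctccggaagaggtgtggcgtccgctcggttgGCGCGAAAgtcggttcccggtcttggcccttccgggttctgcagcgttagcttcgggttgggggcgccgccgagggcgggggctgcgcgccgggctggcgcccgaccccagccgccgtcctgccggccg

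Fanca had CCAAT boxes 50 and 23 bases before its start, and Fancl held none of the motifs, 1 CpG and 41.5% G and C. Atm had 1 CCAAT box on the reverse strand, Chek2 had 2 and an E2F word 152 bases before its start, and Topbp1 had an E2F word at 129 bases in a sequence of 75.0% G and C with 28 CpG. E2F words were found in 4 of the 27 members' promoters (Brca2, Fancg, Chek2 and Topbp1), or 14.8%, against 3.25% of the 8590 promoters of tested genes and 1.58% of all 32851 promoters. CCAAT was found in 13 of 27, or 48.1%, against 34.1% of tested genes and 29.3% of all, and CHR in 0 of 27 against 12.5% and 20.0%. Members and tested genes were each counted at their first listed promoter, whereas the 32851 include every one listed. These matches describe letters and are neither sites of binding nor causes.

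Repair genes often shared their start region with a neighbour. In the GENCODE M21 annotation, which is of build GRCm38, the start of another protein-coding gene lay within 1000 bases on the opposite strand for 13 of 35 members (37.1%), against 1869 of 10413 tested genes with an annotation (17.9%). Atm begins 307 bases from Npat, which activates histone genes, and Npat averaged 11.5 TPM in EY and 14.97 TPM in N (log2 difference -0.37, adjusted p = 0.067). Chek2 begins 202 bases from Hscb, a co-chaperone of iron-sulphur cluster assembly, at 20.3 TPM in EY and 25.6 TPM in N (-0.31, adjusted p = 0.061). Topbp1 and 1300017J02Rik begin 133 bases apart, and the latter was below 1 TPM in both groups on average. Mre11a and Ankrd49 overlap by 202 bases. Whether the authors' quantification used strand is not stated, so reads in such an overlap cannot be assigned to one gene.

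The BRCA mediators, which act on resected DNA, stood near 0, and none of the 4 passed by limma or had an unadjusted p under 0.05. BRCA1 with its partner BARD1 forms a ubiquitin ligase, and PALB2 bridges BRCA1 to BRCA2. Brca1 averaged 11.1 ± 2.26 TPM (SD, n = 6) in EY and 10.9 ± 0.311 TPM (SD, n = 4) in N, with a difference of 0.0014 and a 95% interval of -0.31 to 0.31. Brca2 (7.21 against 7.04 TPM) and Bard1 (4.73 against 4.64 TPM) both differed by 0.01, with intervals of -0.44 to 0.46 and -0.27 to 0.29. Palb2 was at 8.78 TPM in EY and 10.8 TPM in N (-0.26, adjusted p = 0.14).

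The genes Rad51b, Rad51c, Rad51d, Xrcc2 and Xrcc3, whose products assist strand exchange, and the motors and partners that drive it (Rad54l, Rad54b and Rad51ap1) had a median of 0.18, and none of the 8 passed by limma, with 2 at an unadjusted p under 0.05. Xrcc3, whose product pairs with that of Rad51c, was at 3.47 ± 0.890 TPM (SD, n = 6) in EY and 2.06 ± 0.560 TPM (SD, n = 4) in N, at 0.54 (adjusted p = 0.038). The motor gene Rad54l was above N in all 6 EY libraries, with 8.78 to 11.4 TPM (median 9.32) against 7.62 to 8.68 TPM (log2 difference 0.27, adjusted p = 0.064). Rad51b, of the complex that also holds XRCC2, did so as well, at 1.94 to 2.76 TPM (median 2.09) against 1.47 to 1.91 TPM (0.21, adjusted p = 0.20). With Fanca, Fancl, Atm, Chek2 and Topbp1 these made 7 of 35 genes whose groups did not overlap, or 4 above and 3 below, where 20.4% of all genes tested did not overlap. Xrcc2 had the lowest value of the group, with 6.72 TPM in EY and 8.82 TPM in N (-0.37, adjusted p = 0.17). Rad51c, Rad51d, Rad51ap1 and Rad54b lay between -0.08 and 0.22.

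The 7 genes of end resection and of the dissolution of joined strands had a median of -0.12, and none passed by limma, with 2 at an unadjusted p under 0.05. MRE11, RAD50 and NBN form the complex that first binds a break, RBBP8 (CtIP) starts its nuclease, EXO1 extends the trimming, and BLM with RMI1 separates the joined strands. Rbbp8 was lowest, with 18.1 to 24.1 TPM in EY (median 21.8) and 23.7 to 36.7 TPM in N, at -0.32 (adjusted p = 0.084). Without N library 4, which held the 36.7 TPM, the difference was -0.18. Rad50 differed by -0.22 (adjusted p = 0.12) and Mre11a by -0.21 (adjusted p = 0.26). Nbn and Exo1 differed by -0.04 and 0.00, and Blm and Rmi1 by 0.11 and -0.12.

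FANCD2 and FANCI are clamped onto DNA once ubiquitin is attached, SLX4 is the scaffold for the nucleases that unhook the crosslink, and BRIP1 is a helicase that binds BRCA1. None of these 4 passed by limma, and none had an unadjusted p under 0.05. Fancd2 was at 12.0 TPM in EY and 13.3 TPM in N (-0.13), Fanci at 11.2 and 10.7 TPM (0.05), Brip1 at 8.10 and 7.67 TPM (0.07), and Slx4 at 5.24 and 4.45 TPM (0.17, adjusted p = 0.46).

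The lines were then taken separately. Each was compared with the same 4 N libraries, so that the 3 comparisons share their controls and are given side by side. In EY3960 2 of the 35 genes passed, where 17.0% of all genes did, and 0 were past 1 in size as well, where 7.04% were. In EY4028 6 passed, where 16.7% of all genes did, and 1 was past 1 in size, Fanca, where 5.74% were. In EY4174 5 passed, where 15.6% did, and 0 were past 1 in size, where 4.95% were. The unadjusted p was under 0.05 for 10, 11 and 11 of the 35 genes. Those were 28.6%, 31.4% and 31.4% of members, against 39.8%, 41.1% and 41.4% of all genes tested. The medians over the 35 genes were -0.01, 0.07 and -0.08, and those over all genes 0.01, 0.09 and -0.01.

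**Figure D3:**
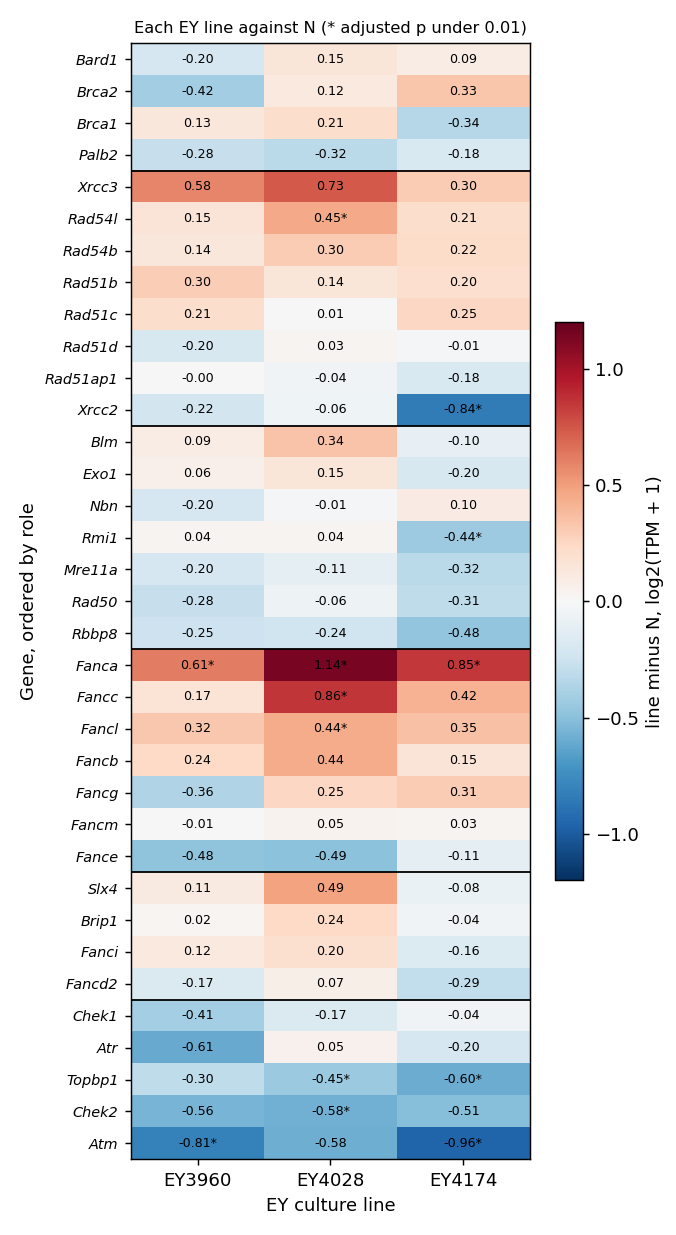
Difference between each EY line and the 4 N libraries for the 35 genes on the log2(TPM + 1) scale, with colour from lower to higher and a mark where limma's adjusted p was under 0.01. Fanca is above 0 in all 3 lines at 0.61, 1.14 and 0.85, whereas Xrcc2 at -0.84 stands out in EY4174 and Fancc at 0.86 in EY4028.

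Fanca passed in each line, at 0.61 in EY3960 (adjusted p = 0.0098), 1.14 in EY4028 (adjusted p = 2.4e-04) and 0.85 in EY4174 (adjusted p = 0.0018). In EY4028 it passed in all 19 other fits, in EY3960 it failed in 14 of 19 with adjusted p up to 0.11, and in EY4174 it failed only without library 1 of that line (0.70, adjusted p = 0.025). Atm passed in EY3960 at -0.81 (adjusted p = 0.0068) and in EY4174 at -0.96 (adjusted p = 0.0030), and was at -0.58 in EY4028 (adjusted p = 0.032). Without library 1 of EY3960 the first of these was -0.49 (adjusted p = 0.10), and without library 2 of EY4174 the second was -0.81 (adjusted p = 0.049). Atm in EY3960 also failed without N library 1, 2 or 3 (adjusted p = 0.018, 0.017 and 0.016) or library 1 or 2 of EY4028 (0.012 and 0.013). Atm in EY4174 also failed without library 1 of that line, at -1.11. Topbp1 passed in EY4028 at -0.45 (adjusted p = 0.0085) and in EY4174 at -0.60 (adjusted p = 0.0019, and 0.034 without library 2 of that line), and Chek2 in EY4028 at -0.58 (adjusted p = 0.0088), with -0.56 in EY3960 (adjusted p = 0.011) and -0.51 in EY4174 (adjusted p = 0.017).

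EY4028 held the most genes that passed. Besides Fanca, Topbp1 and Chek2 these were Fancc at 0.86 (adjusted p = 0.0020), Rad54l at 0.45 (adjusted p = 0.0075) and Fancl at 0.44 (adjusted p = 0.0091). With either EY4028 library left out, Fancc, Rad54l, Fancl, Chek2 and Topbp1 no longer passed, and Fancc then had 0.95 (adjusted p = 0.017) or 0.77 (adjusted p = 0.039). Rad54l also failed without N library 1 or 2 or any library of the other EY lines, Fancl without N library 1, 2 or 3 or either EY3960 library, Chek2 without N library 2 or 3 or either EY3960 library, and Topbp1 without N library 1, 2 or 3, all with adjusted p between 0.010 and 0.024. In EY4174 Xrcc2 was at 4.61 and 4.26 TPM against 7.50 to 10.4 TPM in N, at -0.84 (adjusted p = 0.0013). Without library 2 of that line it was at -0.80 (adjusted p = 0.021). Rmi1 passed there too, at 14.3 and 12.5 TPM against 17.6 to 20.4 TPM (-0.44, adjusted p = 0.0089), in 7 of 19 other fits only. Rmi1 failed without either EY4174 library (adjusted p = 0.018 and 0.096), without any library of the other EY lines (0.015 to 0.018) and without N library 1, 2 or 3 (0.017, 0.020 and 0.023).

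Limma's F test then compared the 3 EY lines among themselves. No member passed, where 8.55% of all genes did, and none passed with a pair of lines more than 1 apart, where 5.12% did. At an unadjusted p under 0.05 there were 10 of the 35, or 28.6%, against 34.8% of all genes tested. The count of members that passed reached 2 at most in other fits. Xrcc2 came nearest (adjusted p = 0.013), with line means of 7.37 TPM in EY3960, 8.37 TPM in EY4028 and 4.44 TPM in EY4174. Rmi1 (adjusted p = 0.022) was also lowest in EY4174, at 13.4 TPM against 19.0 TPM in the other lines. Brca1 (adjusted p = 0.025) was at 12.1, 12.8 and 8.46 TPM in that order of lines, Fancc (adjusted p = 0.045) at 2.64, 4.82 and 3.27 TPM, and Atr (adjusted p = 0.051) at 7.68, 12.5 and 10.6 TPM. The N line was the highest or the lowest of the 4 line means for 20 of 35 members (57.1%), and for 58.0% of all genes tested.

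The genes of the list that are transcribed with the cell cycle were set beside the rest and beside cell cycle transcripts. The 15 cycle-linked members had a median of 0.01 and the other 20 a median of -0.09. The first were Brca1, Brca2, Bard1, Rad51ap1, Rad54l, Rad54b, Exo1, Blm, Fanca, Fancb, Fancd2, Fanci, Brip1, Chek1 and Topbp1. Of them 11 lay above 0 and 4 below, and of the other 20, 8 above and 12 below. Summed levels of the first were 233 to 301 TPM in EY and 277 to 314 TPM in N. In that sum Topbp1 alone averaged 68.8 TPM in EY and 93.8 TPM in N. The sums of the second were 213 to 254 TPM in EY and 249.6 to 287 TPM in N. Replication and E2F genes summed to 1546 to 1665 TPM in EY and 1450 to 1600 TPM in N, and of 31 tested only Tk1, the salvage kinase for thymidine, passed, lower at -0.46 (adjusted p = 9.0e-04). Of 22 genes of G2 and mitosis, Ccnb1 (cyclin B1) at -0.44 and the spindle motor gene Kif11 at -0.53 passed, both lower.

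**Figure D4:**
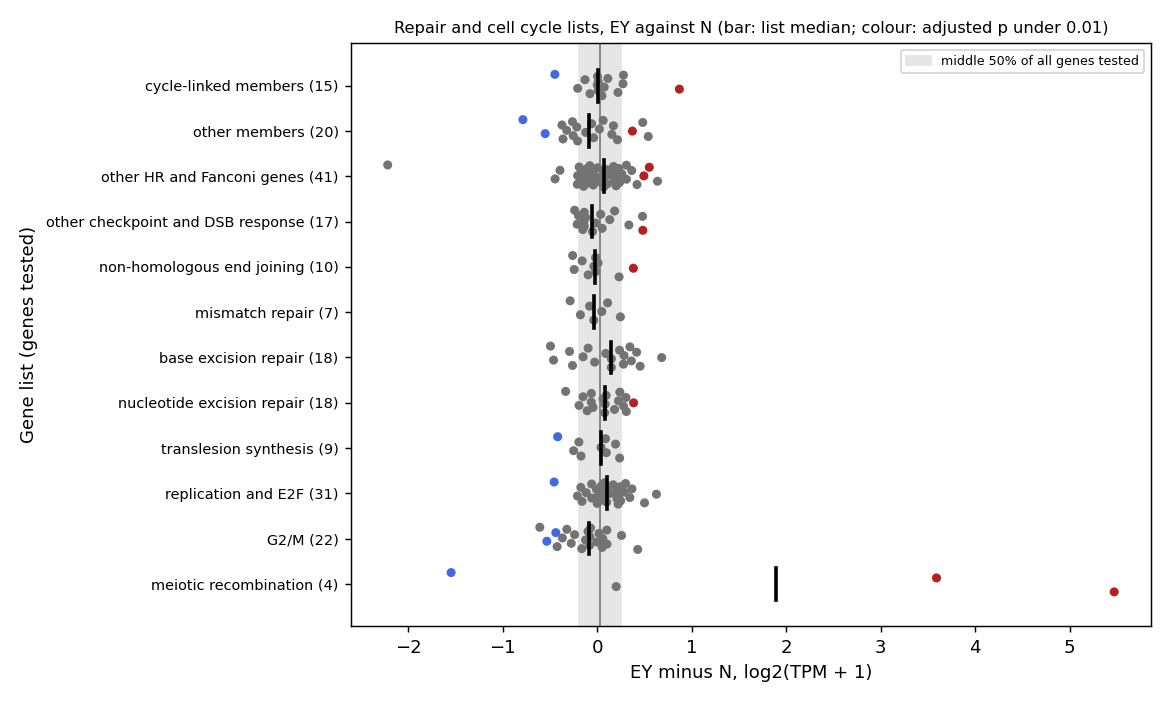
Differences between EY and N on the log2(TPM + 1) scale for the 15 cycle-linked and 20 other members and for other DNA repair and cell cycle lists, 1 point a gene, with a bar at each median, colour where the adjusted p was under 0.01 and a grey band for the middle 50% of all genes tested. Medians lie between -0.09 and 0.15 except for meiotic recombination, whose 4 tested genes are spread from -1.55 to 5.47.

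The other repair lists held 1 or 2 genes that passed, or none, where 11.8% of all genes passed and 37.5% had an unadjusted p under 0.05. Of 41 further genes of homologous recombination and the Fanconi pathway 2 passed, both higher: Rmi2, a partner of RMI1, at 0.55 (adjusted p = 0.0068) and Faap20, which binds FANCA, at 0.49 (adjusted p = 0.0044). Faap20 was at 26.5 ± 3.72 TPM (SD, n = 6) in EY and 18.4 ± 0.802 TPM (SD, n = 4) in N. Of 17 other genes of the checkpoint and break response, Mad2l2, a subunit of the shieldin complex, passed at 0.48 (adjusted p = 0.0033), and of 10 genes of end joining Xrcc5, which encodes KU80, passed at 0.38 (adjusted p = 0.0060). Ercc3, a helicase of transcription factor TFIIH, was the 1 of 18 nucleotide excision genes that passed, at 0.39 (adjusted p = 0.0040). Ube2b, the ubiquitin conjugase that acts with RAD18, was the 1 of 9 translesion genes that passed, at -0.42 (adjusted p = 0.0013). None of 7 mismatch repair genes and none of 18 base excision genes passed by limma, with 0 and 10 at an unadjusted p under 0.05 and medians of -0.04 and 0.15.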

How the data were processed

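Poly(A) RNA-seq of 6 EY and 4 N libraries was taken as deposited. The values are TPM, which the authors computed by dividing reads by transcript length and scaling each library to a common sum. The submitters' processing notes name STAR 2.7.9, SAMtools 1.7, HTSeq 0.13.5, DESeq2 1.34.0 and the build GRCm39, and the study's methods also describe Kallisto with TPM. Which of these made the table is not given in the sources used here, and the read depth is unknown. Each of its 18586 genes was above 0 in at least 6 libraries.

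Tests ran on log2(TPM + 1) in limma 3.58.1 (R 4.3.3, with trend and robust options) for the 11630 genes at 1 TPM or more in at least 4 libraries. Genes with an adjusted p under 0.01 passed, and those that also differed by over 1 were counted apart. Fold changes on this scale understate the change of genes with few TPM. EY was compared with N, each line with N in a fit of 4 line means, and the lines with one another by an F test. The code was tested on simulated data in which each library varied independently. In the fit with line as a random block, libraries of a line had a correlation of 0.44. The simulation therefore does not show how often EY against N errs in these data. The 35 genes and all other lists were written from general knowledge with earlier results of these data known. Every member is named, and of other lists the genes that passed. Alternatives were other pseudocounts, filters, scalings, variance options, blocks, line means, and fits without each library or line. RefSeq promoters came from GRCm38.p6. One other gene of the pathway is not reported here.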

Additional observations from a re-analysis of the deposited data

Results flagged for a closer look

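In 4 of 70 groups of libraries examined, 1 library lay far from the others of its group, where chance gives about 1 in 20, and 2 of the 4 were N library 4. That library had the lowest Nbn of N, at 18.0 TPM against 26.9 to 28.7 TPM, and the highest Rbbp8, at 36.7 TPM against 23.7 to 25.4 TPM. Without it the differences between EY and N were -0.18 for both Nbn and Rbbp8. N library 3 had the highest Rad54l of N, at 8.68 TPM against 7.62 to 7.68 TPM. Library 2 of EY3960 had the highest Rad51b of EY, at 2.76 TPM against 1.94 to 2.16 TPM.

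Brca1 lay on opposite sides of N in 2 lines, though neither line passed against N (0.21, adjusted p = 0.19 in EY4028 and -0.34, adjusted p = 0.045 in EY4174). Both EY4028 libraries (12.3 and 13.2 TPM) lay above all N libraries (10.5 to 11.2 TPM) and both EY4174 libraries (9.29 and 7.63 TPM) below them. The lines were 0.548 apart on the log2 scale, and limma's F test among the lines did not pass (adjusted p = 0.025).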

How the results depend on the processing

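In all 24 alternatives 0 members were both past the threshold and past 1 in size in EY against N, and the median difference of the members stayed between -0.064 and 0.037. The count of members that rose, 2 as reported, was 1 with no filter on low values, with median scaling, without mitochondrial transcripts and without each of the 3 lines, and the count that fell, 3 as reported, was 1 without line EY4028. Median scaling therefore gave 1 higher and 3 lower. With line as a random block or with line means both counts were 0, in fits where 248 and 2 of all genes passed (1377 as reported), and the cause of the other losses was not tested. Leaving out 1 library gave 1 to 2 higher and 0 to 3 lower, in fits where 690 to 1424 of all genes passed. That number was 728, 690 and 722 without N libraries 1, 2 and 3, and 767 without line EY4028. For EY3960 the 2 that passed became 0 with no filter or without trend and robust options, 4 under quantile normalization, and 0 to 5 without 1 library, with 0 to 1 past 1 in size. For EY4028 the 6 became 3 with no filter and 1 to 6 without 1 library, and 2 were past 1 in size at a pseudocount of 0.1. For EY4174 the 5 became 1 to 6 without 1 library, and 1 was past 1 in size at a pseudocount of 0.1 or 0.5 or without mitochondrial transcripts, and 0 to 1 without 1 library. Among the lines 0 to 2 passed without 1 library.

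Sample numbers are shared by the lines, and the deviations of the 12 same-numbered pairs from their line means had correlations of -0.15 to 0.10. With 2 libraries in each EY line these deviations are equal and opposite, so pairs of EY lines gave the same value for both numbers. The low correlations gave no sign that the numbers pair the samples, but cannot exclude it. Sample numbers were also fitted as a replicate block. Some numbers occur in N only, so each such N library was alone in its block and added nothing to the comparison with EY. In this fit of fewer N libraries 345 of all genes tested passed for EY against N, in place of 1377. Of the members 0 rose and 0 fell, 0 passed in EY3960, 1 in EY4028 and 3 in EY4174 (1 past 1 in size), and 1 passed among the lines. Those counts cannot show whether the numbers pair the samples.

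The sign of 13 members with small differences changed in at least 1 alternative. Brca1 was -0.000713 at a pseudocount of 0.1, -0.029 with median scaling and with quantile normalization, -0.025 without mitochondrial transcripts, and -0.065 and -0.10 without lines EY3960 and EY4028. Brca2 was -0.018, -0.021 and -0.015 under those 3 scalings, -0.021 with the replicate block, and -0.042 and -0.15 without EY4028 and EY4174. Bard1 was -0.016, -0.020 and -0.012 under the scalings, and -0.056 and -0.026 without EY4028 and EY4174. Exo1 was -0.027, -0.030 and -0.023 under the scalings, and -0.025 and -0.067 without EY3960 and EY4028. Fancm was -0.00296 with median scaling, -0.00259 with quantile normalization and -0.036 with the block, and Fancd2 was 0.078 with the block. Without EY3960 Rad51d was 0.0092 and Nbn 0.045. Without EY4028 Blm was -0.0023, Fancg -0.030, Fanci -0.023 and Brip1 -0.00916, and without EY4174 Fancg was -0.058 and Rmi1 0.037. Leaving out 1 library gave -0.050 to 0.095 for Brca1, -0.075 to 0.13 for Brca2, -0.031 to 0.087 for Bard1, -0.028 to 0.065 for Exo1, -0.070 to 0.078 for Fancm, -0.26 to 0.059 for Rad51d, -0.18 to 0.030 for Nbn, -0.065 to 0.17 for Fancg and -0.011 to 0.16 for Brip1.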

Other observations

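Among genes of meiotic recombination, which are normally used in germ cells, 3 changed. Of 19 such genes 9 were in the table and 4 were tested, and Stag3 and Meiob reached the level needed for a test in 1 genotype only, so that the share that passed is no measure of the list. Syce2, of the synaptonemal complex that holds paired chromosomes together, rose from 7.97 ± 2.72 TPM in N (SD, n = 4) to 106 ± 20.7 TPM in EY (SD, n = 6), a log2 difference of 3.59. Stag3, the cohesin subunit of meiosis, rose from 0.218 ± 0.217 to 52.7 ± 5.76 TPM (5.47), and Meiob, which binds single-stranded DNA in meiosis, fell from 2.82 ± 0.511 to 0.310 ± 0.168 TPM (-1.55). The values for Syce2 in EY3960, EY4028 and EY4174 were 3.26, 3.67 and 3.85, against the same N libraries.

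Uimc1, which encodes the RAP80 subunit of the BRCA1-A complex, was singled out after its values were seen. It lay at 13.5 to 107 TPM in EY and 193 to 281 TPM in N, with no overlap. It fell in each line against the same N libraries, with log2 differences of -3.88 in EY3960 (adjusted p = 9.4e-09), -1.60 in EY4028 (adjusted p = 1.5e-05) and -1.17 in EY4174 (adjusted p = 1.6e-04). Over all EY libraries, whose lines lay far apart, it did not pass (-2.22, adjusted p = 0.038).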
